A study of Mus musculus with 18 samples.

Results

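The retinoic acid pathway was followed in O9-1 cells, a line of mouse neural crest (NC) cells, through 10 genes with roles in the pathway: Stra6, Aldh1a1, Aldh1a2, Aldh1a3, Cyp26b1, Crabp1, Crabp2, Rara, Rarb and Rarg. Their choice was made with earlier results of these data known. They are 10 of the 55335 gene identifiers counted in each library. The study put O9-1 cells into osteoblast differentiation medium and measured polyadenylated RNA by bulk RNA-seq at day 2.5 (d2.5) and day 5 (d5). Ctrl+vehicle cells received a scramble siRNA and no FGF2, Ctrl+FGF2 cells received the same scramble siRNA and FGF2, and Y/T dKD+FGF2 cells received siRNA pools against Yap and Taz together with FGF2. Each group had 3 libraries at each day, 18 in all, with a wild-type genotype throughout. FGF2 is a fibroblast growth factor, and Yap and Taz are transcriptional coactivators. The comparisons ask how FGF2 and a loss of Yap and Taz change the cells during osteoblast differentiation. O9-1 is a single established line, the knockdown is partial, and no group combined the knockdown with vehicle, so the knockdown was compared in the presence of FGF2 alone. The annotation does not say whether replicates were separate cultures, so p-values measure the spread between these libraries, which may be technical. In the annotation the days are also the batches, and levels at d5 and d2.5 are therefore set side by side without a test.

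Retinoic acid is made from vitamin A. Stra6 is a membrane receptor that takes up retinol, retinol is oxidised to retinaldehyde, and the retinaldehyde dehydrogenases (Aldh1a1, Aldh1a2 and Aldh1a3) form retinoic acid, which Cyp26 enzymes such as Cyp26b1 break down. Inside the cell retinoic acid is carried by Crabp1, which is linked to its turnover, and by Crabp2, which hands it to the nuclear receptors Rara, Rarb and Rarg. These receptors pair with Rxr receptors on DNA. In the head, NC cells and the skull bones and sutures they form are sensitive to both too much and too little retinoic acid, and Cyp26b1 is known for its part in suture patency.

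The libraries held between 10377151 and 14698525 gene counts. Levels are normalized CPM, that is, counts rescaled to equal library sizes among the libraries of a day, given with the SD over 3 libraries, and 3 counts in a library corresponded to between 0.204 and 0.289 CPM. Groups were compared with edgeR's quasi-likelihood test, from which all adjusted p-values come unless another tool is named (Benjamini-Hochberg, over all tested genes), and a gene passed where the adjusted p was under 0.05. Gene positions are those of GENCODE M21 on GRCm38. Scaling all 18 libraries together would have made the d2.5 values 4.81% to 7.06% lower and the d5 values 5.80% to 7.29% higher. Y/T dKD+FGF2 cells kept 51.5% of the Yap1 level of Ctrl+FGF2 cells at d2.5 and 46.0% at d5, and 60.8% and 57.5% of Wwtr1, which encodes Taz. Of 12 NC markers 8 reached 1 CPM in every group, among them Twist1, Snai2 and Tfap2a, while the NC-defining factors Sox10 and Foxd3 were at 0 counts in all libraries. At d2.5 the 12 NC markers summed to between 484 and 522 CPM with vehicle and between 313 and 322 CPM with FGF2. With the knockdown added the sum was 284 to 294 CPM. On the later day the sums read 357 to 366, 352 to 368 and 378 to 389 CPM. With FGF2 4 of 8 tested NC markers fell at d2.5 and 4 did not pass, where 33.5% of all genes rose and 34.1% fell. At d5 4 rose and 3 fell, beside 23.5% and 23.7% of all genes. Markers of other cell types differed between the groups too. The 6 mesenchyme markers summed at d2.5 to between 9654 and 10612 CPM with vehicle and 8122 and 8335 CPM in the FGF2-treated libraries. With FGF2 alone Col3a1 fell there from 4396 to 803 CPM, whereas Vim rose from 3679 to 5729 CPM. Of 5 tested, 1 rose and 4 fell. At d5 the mesenchyme sums were 21042 to 21886 CPM with vehicle and 16206 to 17023 CPM with FGF2. Adding the knockdown gave 19376 to 21061 CPM. Col3a1 fell with FGF2 from 15334 to 8988 CPM on that day. Of 5 tested, 3 rose, among them Vim (3439 to 4591 CPM) and Pdgfra (336 to 544 CPM), and 1 fell. Of 9 osteoblast markers 7 to 9 reached 1 CPM in a group, and their summed level was between 37324 and 37647 CPM in Ctrl+vehicle, 16406 and 16760 CPM in Ctrl+FGF2 and 18789 and 19016 CPM in Y/T dKD+FGF2 libraries at d2.5, and between 65572 and 68742, 36675 and 40545, and 48722 and 50914 CPM at d5. Col1a1 and Col1a2, at 13554 and 18873 CPM on average, made up most of the vehicle sum at d2.5. With FGF2 2 of 8 tested osteoblast markers rose and 6 fell at d2.5 (33.5% and 34.1% of all genes). At d5 4 of 9 rose and 5 fell (23.5% and 23.7%). Spp1 rose with FGF2 from 4291 to 7360 CPM at d2.5 and from 1219 to 1677 CPM at d5. Dmp1 rose from 12.7 to 484 CPM and from 1.60 to 5.87 CPM. At d2.5 the summed level of 4 chondrocyte markers was between 582 and 816 CPM with vehicle and between 42.4 and 52.7 CPM in the FGF2-treated libraries, and that of 5 smooth muscle markers between 180 and 247 CPM and between 14.4 and 25.2 CPM. At d5 the chondrocyte markers summed to between 165 and 264 CPM with vehicle, 227 and 329 CPM with FGF2 and 311 and 321 CPM with FGF2 and the knockdown. The smooth muscle markers summed there to 1909 to 2000, 2519 to 2896 and 1978 to 2147 CPM. Acta2 made up most of these sums, at 1876, 2643 and 1992 CPM on average, while Tagln was at 80.4, 79.7 and 71.6 CPM. Of 3 tested smooth muscle markers 1 rose with FGF2 at d5 and 2 did not pass, where 23.5% of all genes rose. Acta2, like Aldh1a1 and Cyp26b1, was thus highest with FGF2 alone on that day. So were markers of other cell types, among them Pdgfra, Vim, Sox9, Pax3 and Acan. Others, such as Col3a1, Snai2 and Col1a1, were lowest with FGF2 alone. In bulk RNA, fewer cells of a type and less RNA per cell cannot be told apart, and the part of such a shift in the values of the pathway genes was not tested.

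Promoters are shown for the 3 genes with the largest changes in level (Aldh1a1, Cyp26b1 and Crabp1), which lie on different chromosomes, and for Rarb, which carries a retinoic acid response element and was nearly silent. Each sequence is the 250 bases before a RefSeq transcription start on GRCm38.p6, read 5′ to 3′ on the gene's strand. RefSeq promoters were found for 8 of the 10 genes (not for Aldh1a3 and Crabp2). The patterns searched on both strands were AGGTCA, the hexamer that retinoic acid receptors bind, GGAATG for TEAD, the DNA-binding partner of Yap and Taz, TGANTCA for AP-1, and the DR5 element, a pair of receptor hexamers, each allowing variants, repeated in the same direction with 5 bases between them. Capitals mark matches, whose letters appear as they stand on the printed strand.
Aldh1a1, chr19:20492333-20492582, plus strand, with a TEAD match at −168 to −163 and an AP-1 match at −57 to −51 from the start: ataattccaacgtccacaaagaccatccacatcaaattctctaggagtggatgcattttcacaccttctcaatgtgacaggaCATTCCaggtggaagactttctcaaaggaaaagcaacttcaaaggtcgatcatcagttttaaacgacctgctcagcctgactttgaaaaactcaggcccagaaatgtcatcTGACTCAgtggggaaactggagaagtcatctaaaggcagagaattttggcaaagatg
Cyp26b1, chr6:84593811-84594060, minus strand, with no match: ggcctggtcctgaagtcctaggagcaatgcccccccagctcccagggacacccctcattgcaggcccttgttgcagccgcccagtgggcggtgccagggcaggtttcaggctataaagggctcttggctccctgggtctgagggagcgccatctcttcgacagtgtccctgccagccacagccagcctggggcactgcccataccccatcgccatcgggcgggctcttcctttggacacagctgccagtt
Crabp1, chr9:54764498-54764747, plus strand, with a TEAD match at −107 to −102: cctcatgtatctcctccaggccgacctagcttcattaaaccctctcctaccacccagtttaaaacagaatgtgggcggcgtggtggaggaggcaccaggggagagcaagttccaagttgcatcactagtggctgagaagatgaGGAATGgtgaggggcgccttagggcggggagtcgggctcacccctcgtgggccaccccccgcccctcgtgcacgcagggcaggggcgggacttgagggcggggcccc
Rarb, chr14:16575477-16575726, minus strand, with the DR5 element at −53 to −37 and a TEAD match at −8 to −3: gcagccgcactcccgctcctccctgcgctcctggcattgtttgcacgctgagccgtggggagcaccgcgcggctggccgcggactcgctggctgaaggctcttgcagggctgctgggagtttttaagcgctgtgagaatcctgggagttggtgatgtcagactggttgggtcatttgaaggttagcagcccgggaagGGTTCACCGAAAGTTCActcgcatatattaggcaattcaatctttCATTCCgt
Of 32851 promoters of this length, 14.0% held AGGTCA, 12.6% the TEAD pattern and 6.75% the AP-1 pattern, while the DR5 element was in 29 promoters (0.0883%). Aldh1a1 has a further RefSeq start, whose window (chr19:20601718-20601967, not printed) held none of the patterns. The remaining match among the pathway genes was an AGGTCA hexamer at −225 to −220 of Rarg. These matches describe the letters of the windows and do not show binding. For Aldh1a1 and Cyp26b1 the gene models used for counting start at another base (chromosome 19 from 20492715, and chromosome 6 up to 84593908), so the printed Aldh1a1 window ends before that start and the Cyp26b1 window reaches into the counted gene. The Rarb window lies inside the counted gene, which spans 16430839 to 16819156 on chromosome 14 and has several transcripts.

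The pathway was present in part. Per kb of exon, Crabp1 was the highest of the 10 genes in all 6 groups and Rarg the second, at 152 ± 7.25 and 65.7 ± 1.62 CPM per kb in Ctrl+vehicle cells at d2.5 (SD, n = 3). Rara (15.2 ± 0.08), Cyp26b1 (12.1 ± 1.30) and Crabp2 (11.8 ± 1.87) followed there in CPM per kb, the last pair within their spread of each other. Aldh1a1 stood at 0.868 ± 0.107 CPM per kb in those cells, yet at 10.4 ± 0.77 in Ctrl+vehicle and 24.1 ± 2.01 in Ctrl+FGF2 cells at d5, where it was the third highest.

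The remaining genes were at or near the limit of detection. Aldh1a2, the main retinoic acid-forming enzyme of the early embryo, had 0 counts in all 18 libraries, which allows up to 3 counts, or 0.289 CPM before normalization, in a library. Rarb, itself a classic target of retinoic acid, had 9 counts in total and none in the 6 Ctrl+FGF2 libraries. Its highest count was 2, in a Ctrl+vehicle library at d5. Stra6 had 15 counts in total, of which 4 fell in 1 Ctrl+vehicle library at d5, and 9 libraries held none. With so few counts no fold change was computed for these genes, and a low level cannot be told from none at this depth. They were left out of the tests by the filter on low counts, so 7 of the 10 genes were tested at each day. Counting by strand keeps reads of genes on the opposite strand (Top2b over Rarb) largely apart, whereas RNAs on the same strand as Rara (Gm22061) and Stra6 (Gm16131) may share reads with them.

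**Figure D1:**
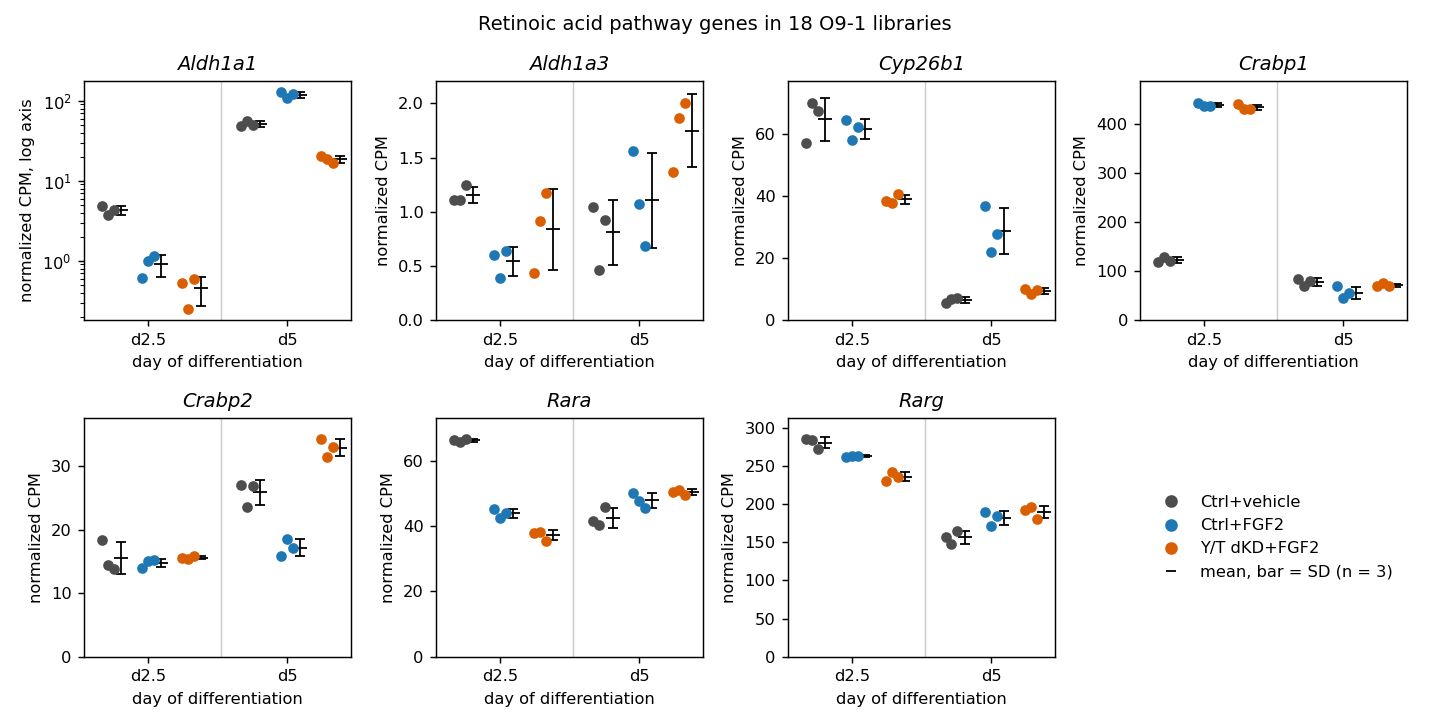
Normalized CPM (y axis, log scale for Aldh1a1 and linear from 0 for the others) of the 7 tested genes in each of 18 libraries, by day and group (colours), with the mean and SD of 3 libraries in black. Aldh1a1 in Ctrl+FGF2 libraries lies below Ctrl+vehicle at d2.5 (0.915 against 4.29 CPM on average) and above it at d5 (119 against 51.3 CPM), and Crabp1 is near 438 CPM in the Ctrl+FGF2 libraries of d2.5.

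FGF2 moved most of the 7 genes at both days, in different directions. At d2.5 Crabp1 rose and 4 genes fell (Aldh1a1, Aldh1a3, Rara and Rarg), so that 5 of 7 passed the test, where 67.6% of all 13677 tested genes did (33.5% rose and 34.1% fell). Their median log2 fold change was −0.09, beside 0.00 over all genes. At d5 it was 4 genes that rose with FGF2 (Aldh1a1, Cyp26b1, Rara and Rarg) and both Crabp genes that fell, 6 of 7 where 47.2% of 13304 genes passed (23.5% up, 23.7% down), with a median of 0.21 beside 0.02. The knockdown lowered Cyp26b1, Rara and Rarg at d2.5 and raised none, 3 of 7 where 24.5% of genes passed (10.8% up, 13.6% down), with a median of −0.16 beside 0.00. At d5 it lowered Aldh1a1 and Cyp26b1 and raised Crabp1 and Crabp2, 4 of 7 where 31.7% passed (15.6% up, 16.1% down), with a median of 0.07 beside 0.00. Between Y/T dKD+FGF2 and Ctrl+vehicle cells 5 of 7 genes differed at d2.5, Crabp1 up and Aldh1a1, Cyp26b1, Rara and Rarg down, where 69.8% of all genes did (34.1% up, 35.7% down). At d5 it was 6 of 7, with Aldh1a1 down and Aldh1a3, Cyp26b1, Crabp2, Rara and Rarg up, where 41.8% did (20.7% up, 21.1% down). No such count over 7 genes is read as particular to the pathway. The FGF2 and knockdown comparisons share their Ctrl+FGF2 libraries, so a library of that group that stands high or low moves them in opposite directions.

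**Figure D2:**
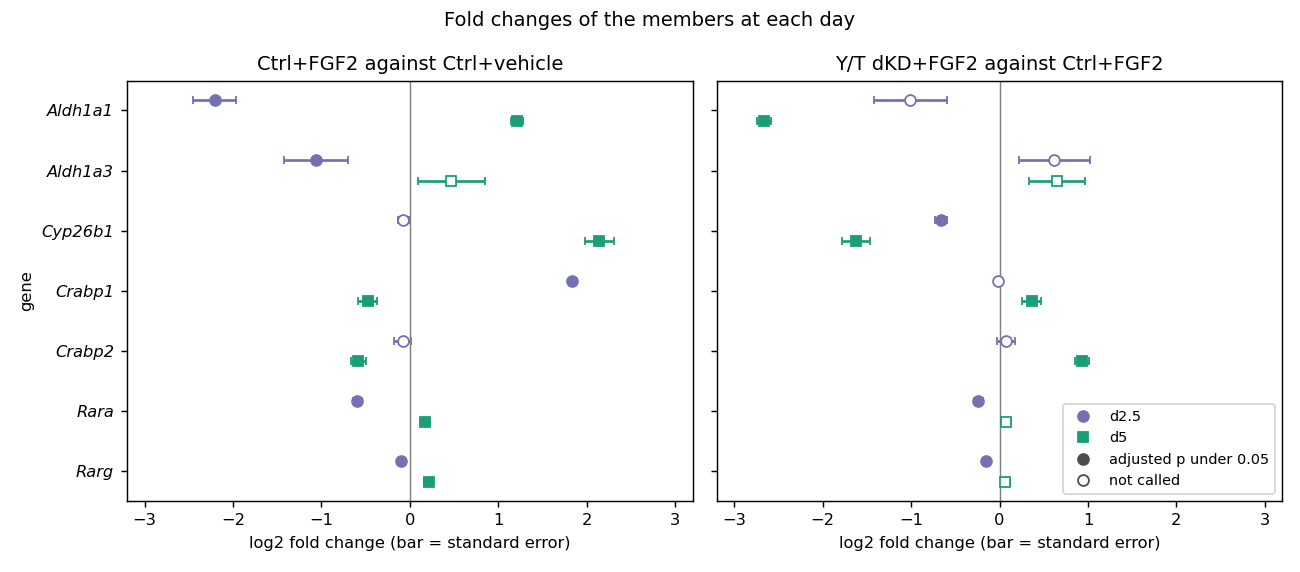
Log2 fold change (x axis) of the 7 tested genes for Ctrl+FGF2 against Ctrl+vehicle (left) and Y/T dKD+FGF2 against Ctrl+FGF2 (right), with bars of 1 SE, circles for d2.5 and squares for d5, filled where the adjusted p is under 0.05. For FGF2, Aldh1a1 goes from −2.21 at d2.5 to 1.21 at d5 and Crabp1 from 1.84 to −0.48, while for the knockdown the lowest values are those of Aldh1a1 (−2.66) and Cyp26b1 (−1.63) at d5.

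Among the enzymes that form retinoic acid, Aldh1a1 (chromosome 19, 20492715 to 20643465, plus strand) covered the widest range. At d2.5 it was at 4.80, 3.75 and 4.31 CPM in the Ctrl+vehicle libraries, 0.601, 1.01 and 1.13 CPM in Ctrl+FGF2 and 0.522, 0.248 and 0.585 CPM in Y/T dKD+FGF2. The 3 groups did not overlap, but the counts behind them were low, from 52 to 65, from 8 to 16 and from 3 to 7. FGF2 lowered Aldh1a1 to 21.3% of its vehicle level, or −2.21 on the log2 scale (with a standard error, SE, of 0.24, adjusted p = 1.8e-09). The further difference with the knockdown, −1.01 (SE 0.41), did not pass (adjusted p = 0.0733), although it did without the first Ctrl+FGF2 library (−1.24, adjusted p = 0.0422). At d5 the order of the first pair was the reverse. Aldh1a1 was at 48.7, 55.7 and 49.5 CPM in Ctrl+vehicle, 127, 108 and 122 CPM in Ctrl+FGF2 and 20.4, 18.8 and 16.8 CPM in Y/T dKD+FGF2 libraries. Every Ctrl+FGF2 library stood above every other library. FGF2 raised it 2.32-fold, by 1.21 on the log2 scale (SE 0.07, adjusted p = 2.1e-10), and the knockdown brought it to 15.7% of its level with FGF2 alone, a log2 fold change of −2.66 (SE 0.08, adjusted p = 1.4e-13). It then lay at 36.4% of the vehicle level as well (−1.45, SE 0.09, adjusted p = 4.4e-10). Of the 3 groups of d5, Y/T dKD+FGF2 cells were thus the lowest for Aldh1a1.

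Aldh1a3 (chromosome 7, 66390890 to 66427517, minus strand), the related enzyme, was low throughout, with between 5 and 24 counts in a library. At d2.5 it was at 1.11, 1.11 and 1.24 CPM in Ctrl+vehicle, 0.601, 0.388 and 0.638 CPM in Ctrl+FGF2 and 0.435, 0.910 and 1.17 CPM in Y/T dKD+FGF2 libraries. The Ctrl+FGF2 libraries lay below all Ctrl+vehicle libraries, a log2 fold change of −1.06 (SE 0.36, adjusted p = 0.0112) that missed the threshold without the second Ctrl+FGF2 library (adjusted p = 0.0595). At d5 the libraries read 1.04, 0.466 and 0.923 CPM with vehicle, 1.56, 1.08 and 0.679 CPM with FGF2, and 1.37, 1.87 and 2.01 CPM with FGF2 and the knockdown. Neighbouring groups overlapped there, and neither FGF2 (0.47, adjusted p = 0.328) nor the knockdown (0.65, adjusted p = 0.131) passed. The knockdown did pass without the first Ctrl+FGF2 library (0.96, adjusted p = 0.0496). Y/T dKD+FGF2 against Ctrl+vehicle differed by 1.12 (SE 0.34, adjusted p = 0.0136), and this call was lost without the second Ctrl+vehicle library (adjusted p = 0.0771), the second (0.0525) or the third (0.0508) Y/T dKD+FGF2 library.

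Cyp26b1 (chromosome 6, 84571414 to 84593908, minus strand), which degrades retinoic acid, fell with the knockdown at both days. At d2.5 it was at 57.0, 70.1 and 67.4 CPM in Ctrl+vehicle, 64.5, 58.1 and 62.1 CPM in Ctrl+FGF2 and 38.5, 37.9 and 40.6 CPM in Y/T dKD+FGF2 libraries. The first pair of groups overlapped and the knockdown libraries lay below all others. FGF2 made a difference of −0.07 that did not pass (SE 0.06, adjusted p = 0.277), though without the first Ctrl+vehicle library it did (−0.16, adjusted p = 0.00685), and the knockdown brought it to 63.3% of its level with FGF2 alone, −0.66 on the log2 scale (SE 0.07, adjusted p = 9.4e-09). At d5 the level was 5.48, 6.91 and 6.97 CPM in Ctrl+vehicle, 36.8, 22.0 and 27.7 CPM in Ctrl+FGF2 and 9.89, 8.25 and 9.84 CPM in Y/T dKD+FGF2 libraries. No groups overlapped, and Ctrl+FGF2 varied most. FGF2 raised Cyp26b1 4.47-fold (2.14, SE 0.17, adjusted p = 1.4e-08), and the knockdown brought it to 32.3% of that level (−1.63, SE 0.16, adjusted p = 3.1e-07). What remained above vehicle, 0.52 (SE 0.20, adjusted p = 0.0456), lost its call in 6 of the 9 fits without 1 library of d5: any of the Ctrl+vehicle libraries (adjusted p = 0.144, 0.0552 and 0.0685), the third Ctrl+FGF2 library (0.0552) or the first (0.135) or the third (0.112) Y/T dKD+FGF2 library.

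Of the binding proteins, Crabp1 had its largest change with FGF2 at d2.5 and Crabp2 with the knockdown at d5. Crabp1 (chromosome 9, 54764748 to 54773110, plus strand) was at 118, 129 and 120 CPM in Ctrl+vehicle, 442, 436 and 436 CPM in Ctrl+FGF2 and 439, 430 and 429 CPM in Y/T dKD+FGF2 libraries at d2.5. FGF2 thus raised it 3.58-fold (1.84, SE 0.04, adjusted p = 3.8e-28), and Y/T dKD+FGF2 cells were above vehicle too (1.82, SE 0.04, adjusted p = 5.0e-28). The difference made by the knockdown was −0.02 (SE 0.03, adjusted p = 0.742). At d5 it read 83.7, 69.1 and 79.6 CPM with vehicle, 68.6, 43.9 and 54.5 CPM with FGF2, and 69.1, 74.9 and 69.6 CPM with FGF2 and the knockdown. The Ctrl+FGF2 libraries were the lowest, with the first of them just under the nearest libraries of the other groups. FGF2 lowered Crabp1 at d5 by 0.48 on the log2 scale (SE 0.11, adjusted p = 0.00121) and the knockdown raised it by 0.36 (SE 0.11, adjusted p = 0.0149). The call for the knockdown was lost without the second (adjusted p = 0.0694) or the third (0.0556) Ctrl+FGF2 library, without the second Y/T dKD+FGF2 library (0.0757), and under DESeq2 (0.109).

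Crabp2 (chromosome 3, 87948666 to 87953376, plus strand) was nearly level at d2.5, with 18.4, 14.4 and 13.8 CPM in Ctrl+vehicle, 14.0, 15.0 and 15.3 CPM in Ctrl+FGF2 and 15.5, 15.4 and 15.8 CPM in Y/T dKD+FGF2 libraries. Neither FGF2 (−0.08, SE 0.10, adjusted p = 0.486) nor the knockdown (0.08, SE 0.10, adjusted p = 0.628) passed the test. At d5 it read 27.0, 23.6 and 26.9 CPM in Ctrl+vehicle, 15.8, 18.6 and 17.1 CPM in Ctrl+FGF2 and 34.2, 31.4 and 32.9 CPM in Y/T dKD+FGF2 libraries, with no overlap of groups. FGF2 lowered it to 66.5% of the vehicle level (−0.58, SE 0.08, adjusted p = 1.4e-05), and with the knockdown it was 1.91-fold higher than in Ctrl+FGF2 cells (0.93, SE 0.08, adjusted p = 6.8e-08). It was then also above vehicle, by 0.35 (SE 0.07, adjusted p = 0.000959). At d5 Crabp2 was therefore highest, and Aldh1a1 lowest, in the same Y/T dKD+FGF2 libraries.

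The receptors Rara (chromosome 11, 98927818 to 98974942, plus strand) and Rarg (chromosome 15, 102234938 to 102257517, minus strand) changed by at most 0.59 on the log2 scale with FGF2 or the knockdown. Between Y/T dKD+FGF2 and Ctrl+vehicle cells they differed by at most 0.83. At d2.5 Rara was at 66.3, 65.8 and 66.4 CPM in Ctrl+vehicle, 45.1, 42.4 and 44.0 CPM in Ctrl+FGF2 and 37.9, 38.1 and 35.4 CPM in Y/T dKD+FGF2 libraries. The groups formed 3 separate steps. FGF2 lowered Rara by 0.59 on the log2 scale (SE 0.05, adjusted p = 5.0e-12), and the knockdown made a further difference of −0.24 (SE 0.06, adjusted p = 0.00188). Y/T dKD+FGF2 against Ctrl+vehicle differed by −0.83 (SE 0.05, adjusted p = 4.8e-15). At d5 Rara was at 41.4, 40.2 and 45.9 CPM in Ctrl+vehicle, 50.1, 47.8 and 45.5 CPM in Ctrl+FGF2 and 50.5, 51.1 and 49.4 CPM in Y/T dKD+FGF2 libraries, so that vehicle and FGF2 libraries overlapped. Its rise with FGF2 on that day (0.17, SE 0.06, adjusted p = 0.0260) was lost without the first (adjusted p = 0.0683) or second (0.116) Ctrl+vehicle library, without the first (0.104) or second (0.0517) Ctrl+FGF2 library, and under DESeq2 (0.114), and the knockdown did not pass (0.07, adjusted p = 0.368). Y/T dKD+FGF2 cells were above vehicle by 0.25 at d5 (SE 0.06, adjusted p = 0.00292).

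Rarg, the most abundant receptor, was at 284, 284 and 272 CPM in Ctrl+vehicle, 261, 263 and 263 CPM in Ctrl+FGF2 and 230, 242 and 235 CPM in Y/T dKD+FGF2 libraries at d2.5. These steps did not overlap but were small, −0.09 for FGF2 (SE 0.03, adjusted p = 0.0123) and −0.16 for the knockdown (SE 0.03, adjusted p = 0.000913). At d5 it read 157, 148 and 164 CPM with vehicle, 189, 171 and 184 CPM with FGF2, and 193, 196 and 181 CPM with FGF2 and the knockdown. All libraries with FGF2 lay above all vehicle libraries, by 0.21 in Ctrl+FGF2 (SE 0.05, adjusted p = 0.00157) and by 0.28 in Y/T dKD+FGF2 cells (SE 0.05, adjusted p = 0.000163), and the knockdown itself did not pass (0.07, adjusted p = 0.321).

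The effects of the same treatment at the 2 days were compared in a fit of all 18 libraries. The FGF2 effect differed between d5 and d2.5 for 7 of the 7 genes, 5 upward and 2 downward, where 60.9% of 14198 genes differed (31.8% and 29.1%). Aldh1a1 had the largest difference, 3.39 on the log2 scale (SE 0.26, adjusted p = 1.6e-12), followed by Crabp1 with −2.34 (SE 0.11, adjusted p = 4.2e-17) and Cyp26b1 with 2.19 (SE 0.18, adjusted p = 9.3e-12). Aldh1a1, Crabp1, Rara and Rarg passed the test of FGF2 at each day with opposite signs. The d5 call of Rara was lost in 6 of 16 alternatives. That of Rarg at d2.5 was lost in the fit of all 18 libraries (adjusted p = 0.0681). The knockdown effect differed for 6 of 7 genes, 4 upward and 2 downward, where 20.9% of all genes did (11.6% and 9.35%). It was more negative at d5 for Cyp26b1 (−0.97, SE 0.18, adjusted p = 0.000148) and for Aldh1a1 (−1.66, SE 0.53, adjusted p = 0.0253), the latter lost without the first Ctrl+FGF2 library (0.0556) or the first (0.106) or the third (0.160) Y/T dKD+FGF2 library of d2.5. It was more positive for Crabp2 (0.85, SE 0.13, adjusted p = 1.5e-05). Aldh1a3 was the gene whose knockdown effect did not pass this test (0.03, SE 0.64, adjusted p = 0.983).

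Ratios within a library compare pairs of pathway genes without the scaling between libraries. Forming against degrading enzyme, Aldh1a1 over Cyp26b1 in CPM per kb, was 0.0729 ± 0.0170 in vehicle cells, 0.0162 ± 0.0053 with FGF2 and 0.0125 ± 0.0047 with FGF2 and the knockdown at d2.5 (SD, n = 3), and 8.69 ± 0.97, 4.61 ± 0.79 and 2.19 ± 0.31 at d5. Cyp26b1 was the higher of the pair in all 9 libraries of d2.5 and Aldh1a1 in all 9 of d5, where the ratio fell from group to group without overlap, from at least 7.71 in Ctrl+vehicle to at most 2.47 in Y/T dKD+FGF2 libraries. At d5 FGF2 raised both enzymes, Aldh1a1 2.32-fold and Cyp26b1 4.47-fold. Crabp1 over Crabp2 was 13.2 ± 2.25, 49.0 ± 2.77 and 45.8 ± 1.03 at d2.5 in the same order and 4.94 ± 0.15, 5.43 ± 1.63 and 3.58 ± 0.31 at d5, so the excess of Crabp1 was widest with FGF2 at d2.5. Rarg over Rara was 4.34 ± 0.12, 6.14 ± 0.21 and 6.50 ± 0.30 at d2.5 and between 3.78 and 3.89 on average at d5, where the groups did not separate.

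**Figure D3:**
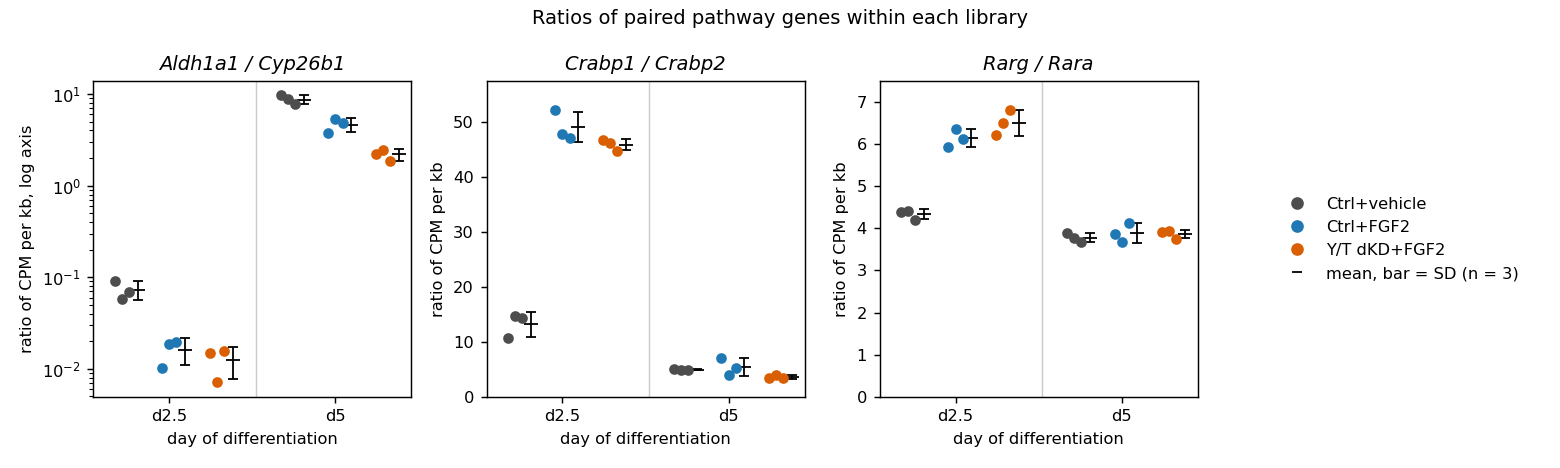
Ratio of CPM per kb (y axis, log scale for Aldh1a1 over Cyp26b1 and linear from 0 for the others) of 3 gene pairs within each of 18 libraries, by day and group (colours), with the mean and SD of 3 libraries in black. Aldh1a1 over Cyp26b1 lies under 0.0914 in the 9 libraries of d2.5 and over 1.85 in those of d5, and Crabp1 over Crabp2 is between 44.7 and 52.2 in the 6 FGF2-treated libraries of d2.5.

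A list of 70 further genes of the pathway was read in the same tests. Of these, 43 were tested at each day, and 25 had at most 18 counts over the 18 libraries. With FGF2 at d2.5, 11 rose, 21 fell and 11 did not pass (median −0.16 beside 0.00 over all genes), and at d5 13 rose, 9 fell and 21 did not pass (median 0.03 beside 0.02). With the knockdown 4 rose and 10 fell at d2.5 (median −0.04 beside 0.00), and 7 rose and 11 fell at d5 (median −0.03 beside 0.00). The shares that passed, 74.4%, 51.2%, 32.6% and 41.9%, stand beside 67.6%, 47.2%, 24.5% and 31.7% of all genes.

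Among genes for oxidation and reduction between retinol and retinaldehyde, 4 of 12 tested rose and 4 fell with FGF2 at d2.5, close to the 33.5% and 34.1% of all genes. Rdh10, the main embryonic retinol dehydrogenase, went from 26.7 ± 1.84 CPM in Ctrl+vehicle to 13.5 ± 0.62 in Ctrl+FGF2 cells (−0.98, adjusted p = 2.6e-12), and Dhrs3, which turns retinaldehyde back into retinol, from 4.76 ± 0.92 to 0.788 ± 0.384 CPM (−2.57, SE 0.26, adjusted p = 3.1e-10). Dhrs9, a retinol dehydrogenase, went the other way, from 10.6 ± 2.76 to 59.4 ± 2.53 CPM (2.49, adjusted p = 4.8e-21), and fell with the knockdown at both days, by 0.74 at d2.5 (adjusted p = 9.8e-09) and by 1.09 at d5 (adjusted p = 5.1e-10). At d5 FGF2 left Rdh10 and Dhrs3 at −0.00 and −0.10, neither past the test (adjusted p = 0.985 and 0.305). Adh1, an alcohol dehydrogenase, fell by 0.68 there (adjusted p = 0.00103).

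Among uptake and storage genes, Dgat1, an acyltransferase that can esterify retinol, fell with FGF2 at d2.5 (−0.45, SE 0.09, adjusted p = 5.2e-05), and Lpl, the lipoprotein lipase, fell with the knockdown at d5 (−0.39, SE 0.10, adjusted p = 0.00789). Among the degrading enzymes Cyp26a1 and Cyp26c1 had at most 3 counts in a library, so Cyp26b1 was the Cyp26 gene that could be tested. Cyp1b1, a cytochrome P450 that also acts on retinoids, fell with FGF2 at both days (−1.34 and −0.43) and rose with the knockdown at both (0.39 and 0.19). Among the receptor partners Rxrg had at most 1 count in a library. Rxra fell with FGF2 at d2.5 (−0.59, adjusted p = 1.4e-13), rose with it at d5 (0.30, adjusted p = 4.3e-05) and fell with the knockdown at d5 (−0.30, adjusted p = 6.7e-05), whereas Rxrb rose with FGF2 at d5 (0.34) and fell with the knockdown at d2.5 (−0.28). Fabp5, which can carry retinoic acid to the receptor Ppard, fell with FGF2 at both days (−1.12, and −1.88 with adjusted p = 4.0e-14) and rose with the knockdown at d5 (0.52, adjusted p = 1.1e-06).

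Known target genes of retinoic acid moved both ways. Of 25 listed, 12 were tested. With FGF2 3 rose and 6 fell at d2.5 (33.5% and 34.1% of all genes), and 7 rose and 1 fell at d5 (23.5% and 23.7%), while the knockdown gave 3 up and 3 down at d2.5 (10.8% and 13.6%) and 1 up and 5 down at d5 (15.6% and 16.1%). Rarres1, a retinoic acid receptor responder, went from 23.3 ± 0.78 CPM in Ctrl+vehicle to 2.73 ± 0.63 in Ctrl+FGF2 cells at d2.5 (−3.09, SE 0.13, adjusted p = 9.1e-20). Dusp1, a phosphatase that inactivates MAP kinases, fell with the knockdown at d2.5 (−0.74, adjusted p = 0.00136) and rose with it at d5 (0.60, adjusted p = 4.6e-06). The 9 Hox genes on the list, direct targets of retinoic acid in the trunk and hindbrain, had at most 1 count each over the 18 libraries. Of the coregulators 9 of 11 tested passed with FGF2 at d2.5, 4 up and 5 down, beside 67.6% of all genes, led by the coactivator Ncoa2 (−0.57), and the knockdown lowered the corepressor partner Hdac3 at d5 (−0.30, adjusted p = 0.000336).

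**Figure D4:**
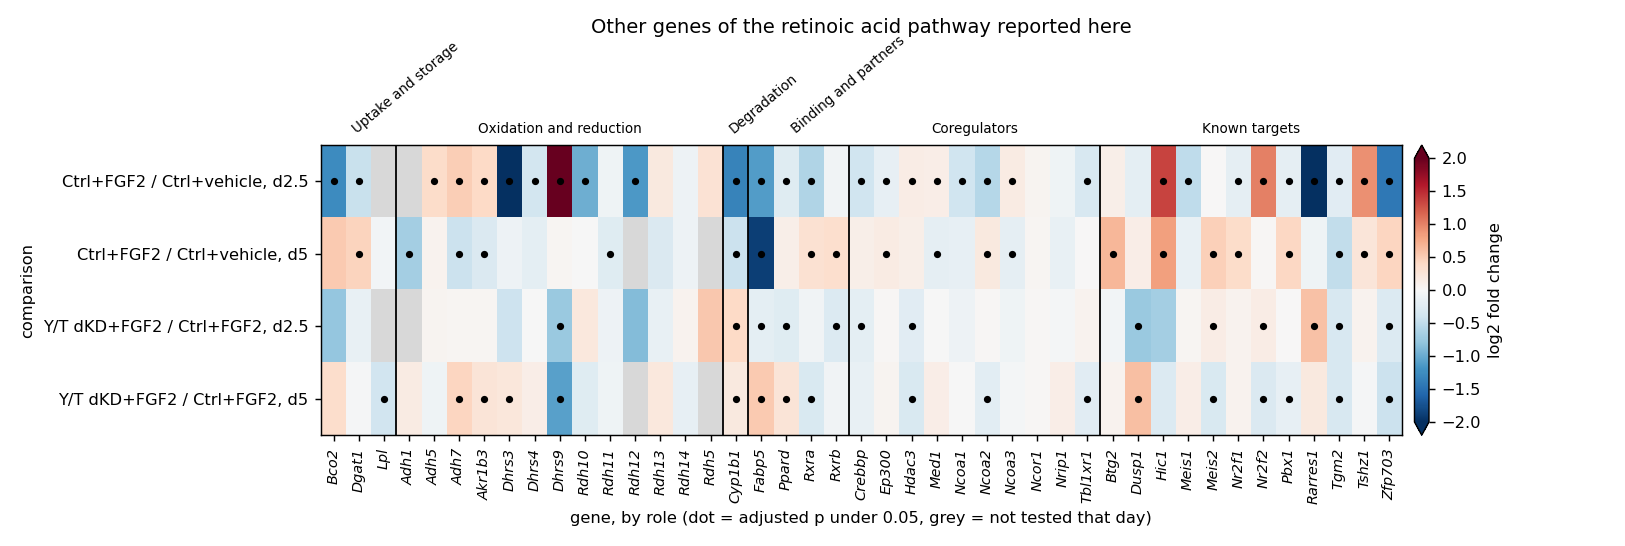
Log2 fold change (colour, from −2 to 2) of tested genes of the wider list that are reported here (x axis, by role) in 4 comparisons (y axis), with a dot where the adjusted p is under 0.05 and grey where a gene was not tested at that day. In the row of FGF2 at d2.5, Dhrs3 (−2.57) and Rarres1 (−3.09) are the darkest blue and Dhrs9 (2.49) the darkest red, and Fabp5 (−1.88) is the darkest blue at d5.

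The gene whose log2 CPM followed each member most closely over the 18 libraries was Arsg, a sulfatase gene, for Aldh1a1 (Pearson's r = 0.991), Gsta4, a glutathione transferase gene, for Cyp26b1 (0.969), and Nsd2, a histone methyltransferase gene, for Crabp1 (0.995). For Crabp2 it was Tpm4, a tropomyosin gene (0.970), for Rara Cic, a transcriptional repressor gene (0.963), and for Rarg Mcrs1 (0.967). These values describe 18 points that share group, day and library size and so are not independent.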

How the data were processed

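For each of the 18 libraries the authors deposited raw gene counts, laid out as STAR writes them. The labels name mm10, FastQC, STAR, Picard and featureCounts without versions, and which tool made the counts is not given in the sources used here. The counts of the reverse strand, 96.0% to 96.6% of stranded counts, were used. Lines that name no gene, 27.0% to 34.4% of a library and including reads placed at several sites, were left out. Of 55335 identifiers, 55154 matched GENCODE M21 (GRCm38) without version.

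The quasi-likelihood test of edgeR 4.0.16 (R 4.3.3) was run with TMM factors and filterByExpr, in 1 fit of 9 libraries per day, and in 1 fit of all 18 for differences between days. Benjamini-Hochberg adjustment covered all tested genes, with a threshold of 0.05. A standard error is the absolute log2 fold change over the square root of F. The test was checked on simulated counts. Alternatives were DESeq2 1.42.0, RLE factors, no filter, unstranded counts, the 2 groups alone, all 18 libraries, a replicate block, and leaving out each library.

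The 10 genes, the list of 70 and the tests were chosen with earlier results of these data known. Beside the 10 genes, those named are Yap1, Wwtr1, Cyp26a1, Cyp26c1, Rxra, Rxrb, Rxrg, Rdh10 and Dhrs3, the called gene with the largest change per role and comparison where the mean log2 CPM reached 1, and the gene most alike over 18 libraries (log2 CPM with a prior count of 2). That rule also gave Dgat1, Ncoa3, Crebbp, Tbl1xr1, Btg2 and Tgm2. Some genes that the rule names are counted with the list but not reported here. Promoters came from RefSeq.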

Additional observations from a re-analysis of the deposited data

Results flagged for a closer look

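For 7 of the tested genes the FGF2 effect differed between the days, as it did for 60.9% of all 14198 genes tested. On the log2 scale, d5 minus d2.5, the difference was 3.39 for Aldh1a1, 1.51 for Aldh1a3, 2.19 for Cyp26b1, −2.34 for Crabp1, −0.53 for Crabp2, 0.74 for Rara and 0.28 for Rarg. The adjusted p was 0.0150 for Aldh1a3 and at most 0.000890 for the others. The value of Aldh1a3 missed the threshold without the second Ctrl+vehicle library of d5 (adjusted p = 0.0525) or the first Ctrl+FGF2 library of d5 (0.0688). Each day is its own batch in the annotation, so the day and the batch cannot be told apart.

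The knockdown effect differed between the days for 6 of these genes, and for 20.9% of all genes tested. The differences were −1.66 for Aldh1a1, −0.97 for Cyp26b1, 0.38 for Crabp1, 0.85 for Crabp2, 0.31 for Rara and 0.22 for Rarg. The call of Aldh1a1 (adjusted p = 0.0253) was lost without the first Ctrl+FGF2 library (0.0556), the first (0.106) or the third (0.160) Y/T dKD+FGF2 library of d2.5. That of Crabp1 (adjusted p = 0.0125) was lost under DESeq2 (0.118) and without the second Ctrl+FGF2 (0.0714) or second Y/T dKD+FGF2 (0.0513) library of d5.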

How the results depend on the processing

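Over 64 results and 1131 alternative values, none of the called changes turned its sign, and the counts of called pathway genes stayed within 1.5 times their main value. Of the alternative values 31 lost a call and 3 gained one. Most of these belong to Aldh1a3, Crabp1, Rara and Cyp26b1 and come from leaving out 1 library. DESeq2 also ended the calls of Aldh1a3 for FGF2 at d2.5 (adjusted p = 0.0562) and for the knockdown with FGF2 against vehicle at d5 (0.0588), the fit of all 18 libraries that of Rarg for FGF2 at d2.5 (0.0681), and the fit of the 2 groups alone that of Rara for FGF2 at d5 (0.0672). Whether the replicate numbers pair the samples is not known. Of 18 same-numbered pairs 1 had a correlation over 0.1 (r from −0.07 to 0.11), but pairs with different numbers were not set beside them. With the numbers as a replicate block the counts of called genes were 5, 3 and 5 at d2.5 and 6, 4 and 6 at d5 for FGF2, the knockdown and the knockdown with FGF2 against vehicle, and 7 and 6 for the differences between days, the same as without it, and no single call changed. Depth limits Aldh1a1 at d2.5 and Aldh1a3, and leaves Aldh1a2, Rarb and Stra6 untested.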
